A study of Mus musculus with 8 samples.

Results

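The matrix metalloproteases (MMPs), the ADAM and ADAMTS proteases and their tissue inhibitors (TIMPs) were followed in ribosome-bound RNA of the mouse kidney after ischemia. Members were all gene symbols of the count files that begin Mmp, Adam, Adamts or Adamtsl with a number, or Timp with a number from 1 to 4. There were 84 of 24421 symbols, and 50 of them had 10 or more counts in at least 4 of the 8 libraries. Libraries came from 4 mice with kidney ischemia/reperfusion injury (IRI), with the renal artery clamped for 30 min and kidneys taken 9 h later, and from 4 sham mice. All mice carried HoxB7-Cre and the Gt(ROSA)26Sor-mCherry-Rpl10a allele, and the study's methods give male mice aged 10 to 16 weeks for its IRI experiments. Cre switches on a tagged ribosomal protein in cells with a history of HoxB7 expression, the lineage that forms the collecting duct and ureter, so that their RNA can be pulled down (RiboTRAP). No total kidney or untagged pulldown library was analysed here.

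MMPs and ADAMTSs are zinc proteases that cut the matrix around cells, as secreted enzymes or, for some MMPs, tethered to the membrane. ADAMs are membrane proteins, and those with an active protease domain release growth factors, cytokines and receptors from the cell surface, the step called shedding. ADAMTS-like proteins lack the protease domain, and TIMPs are secreted proteins that block MMPs and, in part, ADAMs and ADAMTSs. In the kidney these genes are known from matrix turnover, from shedding of ligands of the epidermal growth factor receptor, and from the entry of leukocytes after injury.

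The libraries held 13518005 to 27496808 counts in genes after IRI and 25210299 to 29285812 in sham. Values are CPM, the counts of a gene relative to all counts in genes of its library, scaled by the TMM factors of edgeR. The labels name the material as collecting duct cells. The 9 principal cell markers summed to 1844 to 3621 CPM after IRI, against 11784 to 15519 CPM in sham, with all 9 lower, and the 8 intercalated cell markers, all lower too, to 954 to 1541 CPM and 3272 to 4094 CPM. All counts of higher or lower markers are to be read beside 25.1% higher and 24.6% lower among all tested genes. Markers of cells outside the HoxB7 lineage were present in both groups. Those of the proximal tubule (12 genes, 7 higher) summed to 8712 to 18464 CPM after IRI, against 7219 to 9921 CPM in sham. The 10 neutrophil markers in the files summed to 49.3, 128, 137 and 71.1 CPM in IRI libraries 1 to 4 and to 2.19 to 4.72 CPM in sham. Of their 7 tested genes 6 were higher, among them Ngp, which reached the filter through the IRI libraries alone and so had to differ. Retnlg, with 3, 4, 10 and 5 sham counts, and Cxcr2, with 6, 10, 19 and 8, passed the filter mainly through the IRI libraries. Ngp, Camp, Mpo and Elane had no count in any sham library, and after IRI Camp had 2, 1, 11 and 0 counts, Mpo 3, 2, 9 and 2, and Elane 0, 0, 0 and 1, too few to be tested. Ly6g was not among the symbols analysed here. The 11 fibroblast and pericyte markers (2 higher) summed to 281, 1673, 577 and 504 CPM in IRI libraries 1 to 4 and to 210 to 355 CPM in sham, so IRI 2 stood apart from the other IRI libraries. The 10 endothelial markers summed to 312, 640, 527 and 450 CPM in IRI libraries 1 to 4 and to 188 to 277 CPM in sham. Of these, 5 were higher, Cdh5 the most at 7.15-fold, and 5 did not pass, with Tek 1.71-fold lower. The 10 macrophage markers summed to 73.9, 127, 107 and 84.5 CPM after IRI and to 38.2 to 56.0 CPM in sham. Here 4 were higher, Itgam (6.37-fold) and Cd68 (5.39-fold) the most, and 6 did not pass, Adgre1 and Csf1r among them. The part of these cells in the changes below was not tested. By the numbers in the submitters' names, the animals fall into a low series (IRI 1 to 3 and sham 1) and a high series (IRI 4 and sham 2 to 4), which are uneven between the groups. In such bulk samples, fewer cells of a type and less RNA per cell cannot be told apart.

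A cluster on chromosome 9 carries several secreted MMPs. In GENCODE positions on GRCm38 (the assembly of mm10), Mmp12 and Mmp3 lie 76322 bases apart, Mmp3 and Mmp10 46376, Mmp10 and Mmp8 48215, and Mmp8 and Mmp7 123604. Members that were not reported lie in these gaps: Mmp1b in part between Mmp12 and Mmp3, Mmp1a between Mmp3 and Mmp10, and Mmp27 and Mmp20 between Mmp8 and Mmp7. Mmp3 and Mmp8 rose after IRI, Mmp7 and Mmp12 did not pass the test, and Mmp10 had few counts, nearly all of them after IRI. Promoter windows of RefSeq (GRCm38.p6, 250 bases before to 50 after a start) were read for the AP-1 motif TGAGTCA or its reverse complement TGACTCA, so that both strands were searched. Of 51 member symbols looked up, 35 matched, with 40 windows, and 5 windows (12.5%) held the motif, against 1709 of 32851 windows (5.20%) in the table. The 5 were Mmp3, Mmp10 and 1 window each of Mmp7, Mmp12 and, on chromosome 11, Adam19. Other windows of Mmp7, Mmp12 and Adam19 had no match, nor had the Mmp8 window. Their 250 bases before the start follow, all on the plus strand, with the match in capitals. They are printed because genes of the cluster that passed the test and genes of it that did not pass carry the match at a similar place. A match is a description of the letters and not of binding.
Mmp3 (chr9:7445572-7445821): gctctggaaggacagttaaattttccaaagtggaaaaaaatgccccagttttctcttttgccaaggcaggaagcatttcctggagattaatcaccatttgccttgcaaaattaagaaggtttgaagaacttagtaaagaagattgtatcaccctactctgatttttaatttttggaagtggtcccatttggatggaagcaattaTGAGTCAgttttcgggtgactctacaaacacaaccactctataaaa
Mmp10 (chr9:7502092-7502341): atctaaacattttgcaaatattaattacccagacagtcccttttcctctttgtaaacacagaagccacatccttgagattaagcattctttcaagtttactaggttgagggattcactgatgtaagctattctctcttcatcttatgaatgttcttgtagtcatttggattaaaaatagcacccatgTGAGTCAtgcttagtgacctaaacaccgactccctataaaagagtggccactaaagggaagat
Mmp12 (chr9:7347124-7347373): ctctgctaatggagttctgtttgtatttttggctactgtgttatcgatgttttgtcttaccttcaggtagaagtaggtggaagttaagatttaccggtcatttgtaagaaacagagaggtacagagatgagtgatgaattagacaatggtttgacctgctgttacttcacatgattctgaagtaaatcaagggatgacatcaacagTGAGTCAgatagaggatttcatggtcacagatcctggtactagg
Mmp7 (chr9:7691840-7692089): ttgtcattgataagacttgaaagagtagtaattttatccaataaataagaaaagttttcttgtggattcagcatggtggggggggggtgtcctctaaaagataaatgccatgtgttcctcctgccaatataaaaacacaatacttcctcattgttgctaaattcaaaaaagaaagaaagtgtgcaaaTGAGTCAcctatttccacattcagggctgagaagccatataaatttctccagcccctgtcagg
Adam19 (chr11:46055734-46055983): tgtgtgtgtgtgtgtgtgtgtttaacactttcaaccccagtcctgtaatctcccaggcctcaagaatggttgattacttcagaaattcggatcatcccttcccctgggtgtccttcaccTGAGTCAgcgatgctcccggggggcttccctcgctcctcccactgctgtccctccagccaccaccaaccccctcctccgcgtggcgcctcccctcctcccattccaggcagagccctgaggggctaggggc
The match began 46 bases before the start in Mmp3, 63 in Mmp10 and Mmp7, 44 in Mmp12 and 131 in Adam19. Of these 5 genes, Mmp3, Mmp10 and Adam19 were higher after IRI by the test. Mmp10 reached the filter only through the IRI libraries and so had to differ.

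After IRI more of these genes were higher than lower. Of the 49 reported members that were tested, 21 were higher, 5 were lower and 23 did not pass, so 26 were called, where 49.7% of all tested genes were called (edgeR's quasi-likelihood test, Benjamini-Hochberg adjustment over 14606 genes, threshold 0.01). Among all tested genes 25.1% were higher and 24.6% lower. Of the 21, 20 rose at least 2-fold, a size that 14.0% of all genes reached upwards, and 3 of the 5 fell at least 2-fold, which 10.5% of all genes did. The median log2 fold change was 0.30 over the members and -0.01 over all genes. Every IRI library lay above every sham library in 19 members and below in 6, against 28.8% and 29.8% of all genes (58.6% on either side). These counts include Mmp25 and Adamts20, which reached 10 counts only in the IRI or only in the sham libraries and so had to differ. Without IRI 2, 18 members were higher and 5 lower. The plot of fold changes by role shows that 9 of the 10 role groups hold both genes that rose and genes that did not pass.

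**Figure D1:**
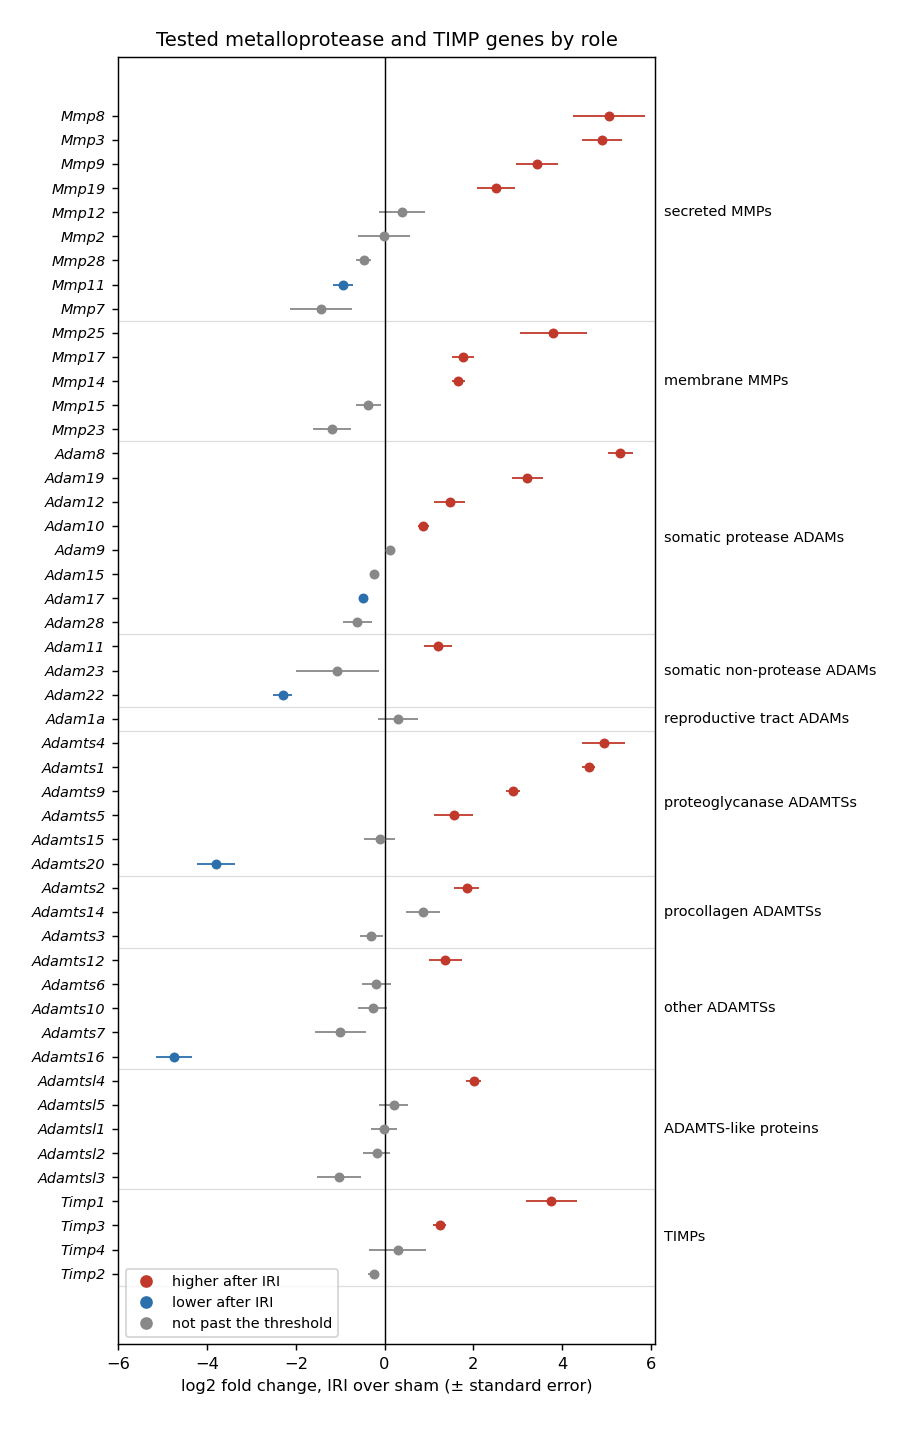
Log2 fold change of IRI over sham for the 49 tested members, grouped by role, with the limma-voom standard error as bars (n = 4 libraries per group). Red marks the 21 higher members, blue the 5 lower members and grey those not past the threshold; Adam8 at 5.32 and Adamts16 at -4.75 are the ends of the range.

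The proteoglycanase ADAMTSs cut versican and aggrecan, large proteoglycans of the matrix. Their summed level was 1309 ± 80.9 CPM after IRI, against 103 ± 23.1 CPM in sham (SD, n = 4 each), a ratio of 12.7. Adamts1 made up 78.1% of that sum after IRI and 40.8% in sham. Of 6 tested genes 4 rose and 1 fell. Adamts1 (chromosome 16, 85793827 to 85803113) was at 959, 999.9, 1044 and 1088 CPM in the IRI libraries, against 52.3, 33.6, 39.2 and 43.7 CPM in sham. No IRI library was far from the others, and all were far above sham. It rose 24.2-fold (log2 fold change 4.60, SE 0.14, edgeR adjusted p = 4.4e-07). Adamts4, an aggrecanase, was at 40.6, 59.9, 74.8 and 34.2 CPM after IRI, against 0.821, 1.84, 2.63 and 1.44 CPM in sham. It rose 30.7-fold (log2 fold change 4.94, SE 0.49, edgeR adjusted p = 6.8e-06), with no overlap and a wider spread than Adamts1. Adamts9, a versicanase, was at 158, 169.9, 206 and 166 CPM after IRI, against 27.7, 19.3, 18.8 and 28.2 CPM in sham. Its rise was 7.45-fold (log2 fold change 2.90, SE 0.15, edgeR adjusted p = 1.8e-06), and 12.0% of its exon bases overlap antisense genes.

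Adamts5, the other main aggrecanase, lies 53059 bases from Adamts1. It was at 15.3, 66.1, 38.2 and 34.8 CPM after IRI, against 11.9, 15.04, 7.63 and 17.6 CPM in sham, so that IRI 1 fell among the sham libraries. The fit gave a 2.95-fold rise (log2 fold change 1.56, SE 0.44, edgeR adjusted p = 0.00836). Leaving out 1 library at a time, the call held without IRI 1 (adjusted p = 0.00118) and was lost without any of the other 7, at adjusted p from 0.0118 to 0.0248. IRI 2, the library with the highest fibroblast and pericyte markers, was also the highest for Adamts5, and the part of those cells was not tested. Adamts20, the close relative of Adamts9, had 1, 2, 3 and 1 counts in the IRI libraries and 36, 46, 44 and 32 in sham. Scaled by library size, the summed counts were 14.99-fold lower, and the exact 95% interval for counting error ran from 7.11 to 37.9 (log2 fold change -3.79, SE 0.43, edgeR adjusted p = 5.4e-05). Adamts20 reached 10 counts in the sham libraries alone and so had to differ. Adamts15 did not pass the test, at 19.9 ± 5.05 CPM after IRI, against 21.5 ± 10.3 CPM in sham.

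The procollagen ADAMTSs trim the amino end of fibrillar procollagens. Adamts2 rose 3.60-fold (log2 fold change 1.85, SE 0.29, edgeR adjusted p = 3.1e-04), with 13.9, 28.0, 25.1 and 19.9 CPM after IRI, against 7.39, 4.74, 4.12 and 7.84 CPM in sham. Its groups did not overlap, and IRI 2 was again highest. Adamts3 and Adamts14 did not pass.

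Adamts16 showed the deepest fall of all members. Its product cuts fibronectin, and the gene has been tied to blood pressure in rats. It had 5, 10, 6 and 14 counts in the IRI libraries and 276, 421, 439 and 350 in sham, or 0.196, 0.779, 0.374 and 0.664 CPM after IRI, against 10.3, 14.9, 13.9 and 12.9 CPM in sham. All 4 IRI libraries were far below sham, while sham libraries were close to each other. It was 26.9-fold lower (log2 fold change -4.75, SE 0.40, edgeR adjusted p = 4.7e-06). The fall stood beside that of the principal and intercalated cell markers, and whether it belongs to those cells was not tested. Adamts12, which cuts cartilage oligomeric matrix protein, was at 1.76, 5.14, 3.24 and 3.41 CPM after IRI, against 1.23, 0.885, 1.11 and 1.96 CPM in sham. IRI 1 was below sham 4, and the call (2.58-fold, log2 fold change 1.37, SE 0.37, edgeR adjusted p = 0.00837) was lost without IRI 2, 3 or 4 or without sham 1, 2 or 3, at adjusted p from 0.0178 to 0.0247. Adamts7, its closest relative, did not pass at 3.81 ± 1.11 CPM after IRI, against 7.53 ± 3.91 CPM in sham. Sham 3, at 2.15 CPM, was the lowest library, and without it Adamts7 was lower (log2 fold change -1.31, edgeR adjusted p = 0.00232). Adamts6, the most abundant of this group after IRI, was at 6.03, 6.54, 7.29 and 5.97 CPM, within the sham values of 9.26, 3.50, 6.68 and 9.91 CPM. Adamts6 and Adamts10, both linked to fibrillin microfibrils, did not pass, and Adamts17 was too low to be tested.

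Of the 5 ADAMTS-like genes only Adamtsl4 passed. Its product binds fibrillin microfibrils. It was at 17.1, 21.6, 20.2 and 20.6 CPM after IRI, against 5.04, 4.28, 3.80 and 6.54 CPM in sham, an even 4.04-fold rise without overlap (log2 fold change 2.01, SE 0.17, edgeR adjusted p = 1.4e-05). Adamtsl2, which also binds fibrillin, was at 4.58, 12.2, 9.97 and 11.2 CPM after IRI, against 7.43, 10.4, 11.9 and 12.9 CPM in sham. Adamtsl1, Adamtsl3 and Adamtsl5 did not pass either.

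**Figure D2:**
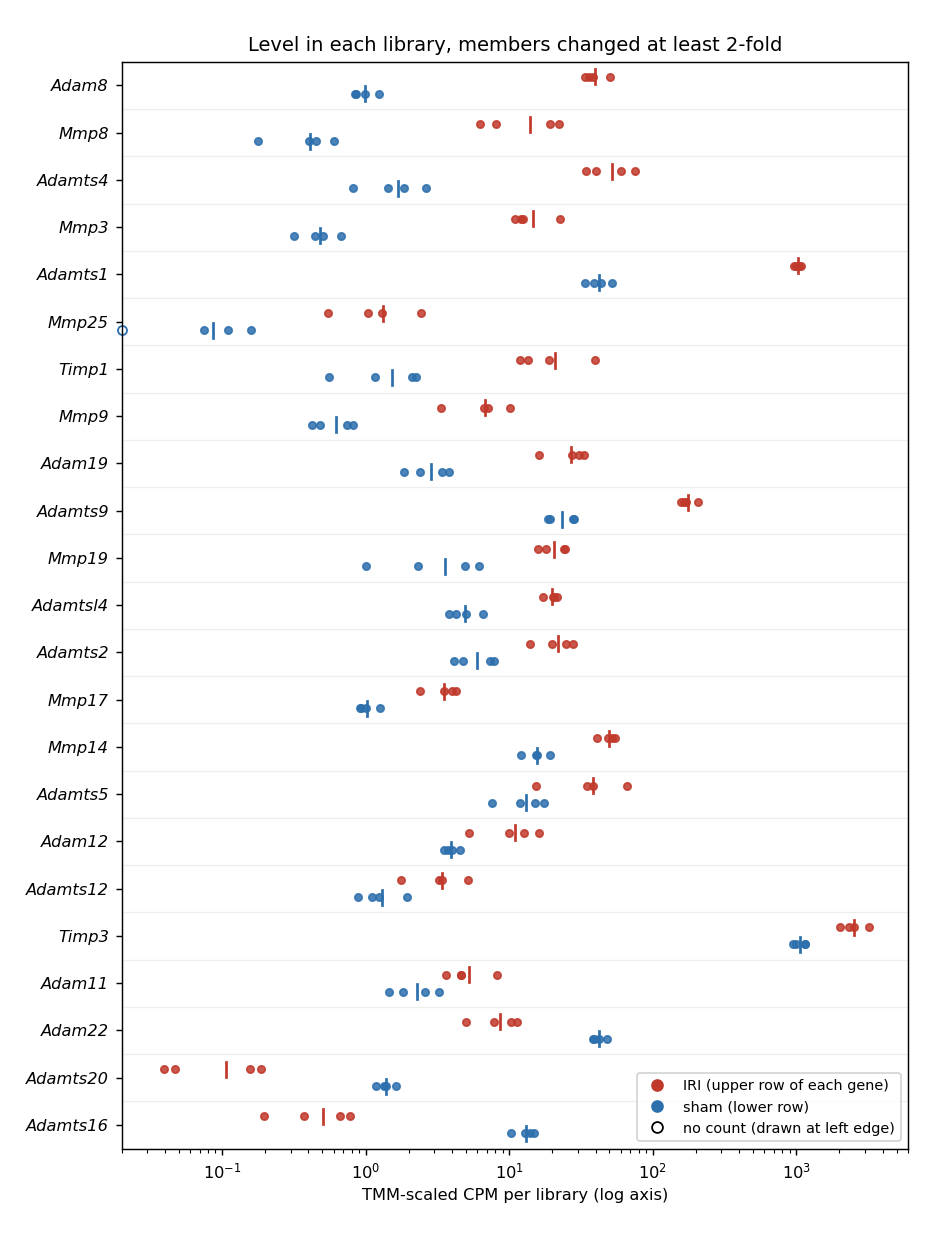
TMM-scaled CPM of each library on a log axis for the 23 members that changed at least 2-fold past the threshold; for each gene the IRI libraries are in the upper row and the sham libraries in the lower row, a vertical tick is the mean of 4 libraries, and an open circle at the left edge is a library with no count. The rows of Adamts1, Adam8 and Timp3 are tight and apart, and those of Adamts5 and Adamts12 overlap.

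The secreted MMPs summed to 68.8 ± 13.8 CPM after IRI, against 23.5 ± 5.20 CPM in sham. Of 9 tested genes 4 rose and 1 fell. Mmp3, stromelysin, which cuts proteoglycans and activates other pro-MMPs, was at 12.2, 12.5, 10.96 and 22.6 CPM after IRI, against 0.672, 0.319, 0.507 and 0.444 CPM in sham. IRI 4 was well above the other 3 IRI libraries, and each of them was far above sham (29.8-fold, log2 fold change 4.90, SE 0.45, edgeR adjusted p = 3.3e-06). Mmp8, neutrophil collagenase, was at 6.23, 19.2, 22.4 and 8.06 CPM after IRI, against 0.448, 0.177, 0.602 and 0.407 CPM in sham. It rose 33.3-fold (log2 fold change 5.06, SE 0.81, edgeR adjusted p = 4.2e-05), with IRI 2 and 3 well above IRI 1 and 4. The neutrophil marker sum put the IRI libraries in the same order as Mmp8 (49.3, 128, 137 and 71.1 CPM), and its part in the rise was not tested.

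Mmp9, gelatinase B, which neutrophils store and epithelia can make, was at 3.33, 10.2, 7.16 and 6.69 CPM after IRI, against 0.747, 0.425, 0.824 and 0.481 CPM in sham. It rose 10.9-fold with no overlap (log2 fold change 3.44, SE 0.48, edgeR adjusted p = 5.5e-05). Mmp19, a secreted MMP that cuts basement membrane proteins, was at 15.9, 24.5, 24.1 and 18.02 CPM after IRI, against 1.01, 2.30, 6.14 and 4.92 CPM in sham. Here the sham libraries were the uneven ones, and the rise was 5.70-fold (log2 fold change 2.51, SE 0.44, edgeR adjusted p = 0.00113). As 28.3% of its exon bases overlap Tmem198b and another gene on the opposite strand, its counts are uncertain. Mmp10, a stromelysin of the same cluster as Mmp3, missed the reporting limit with 10 counts in only 3 libraries. It had 34, 8, 17 and 16 counts after IRI and 1, 0, 0 and 0 in sham, a count ratio of 112.9 with an exact 95% interval of 19.7 to 4518 for counting error. The test called it higher (log2 fold change 6.09, SE 0.48, edgeR adjusted p = 4.4e-05). Mmp10 reached the filter only through the IRI libraries and so had to differ.

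Mmp11, an MMP that furin activates inside the cell, was the secreted member that fell, 1.91-fold (log2 fold change -0.93, SE 0.23, edgeR adjusted p = 0.0062). It was at 1.65, 2.65, 1.81 and 2.66 CPM after IRI, against 5.41, 3.68, 3.93 and 3.62 CPM in sham, without overlap, but the call was lost without IRI 1 or 3 or sham 1 or 3, at adjusted p from 0.0120 to 0.0191. Mmp7, matrilysin, the most abundant secreted MMP in sham, was at 3.96, 1.40, 1.99 and 0.948 CPM after IRI, against 14.2, 2.80, 3.61 and 2.33 CPM in sham. Sham 1 carried the sham mean, and Mmp7 did not pass (log2 fold change -1.44, adjusted p = 0.0834, and -0.48 without sham 1). With the animal number series as covariate, in which sham 1 is the only sham library of the low series, it was lower (log2 fold change -2.13, adjusted p = 0.00181), and so it was with a replicate block (-1.27, adjusted p = 0.00548). Mmp28, epilysin, lay lower in every IRI library, at 3.21, 3.58, 2.74 and 4.60 CPM, than in sham, at 4.89, 4.78, 5.23 and 4.66 CPM, but did not pass (adjusted p = 0.0464). Mmp2, gelatinase A, was at 2.75 ± 1.62 CPM after IRI, against 2.73 ± 1.10 CPM in sham, and Mmp12, macrophage elastase, did not pass either.

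The membrane MMPs were led after IRI by Mmp14, which activates pro-MMP2 at the cell surface. It was at 52.2, 49.1, 41.2 and 54.6 CPM after IRI, against 15.6, 12.1, 19.4 and 15.5 CPM in sham, and rose 3.155-fold (log2 fold change 1.66, SE 0.15, edgeR adjusted p = 1.7e-05). Mmp17, anchored to the membrane by a lipid, rose 3.40-fold (log2 fold change 1.77, SE 0.25, edgeR adjusted p = 1.7e-04), with 2.39, 4.28, 3.99 and 3.51 CPM after IRI, against 0.933, 0.920, 1.01 and 1.26 CPM in sham. Mmp25, a lipid-anchored MMP of leukocytes, had 14, 31, 21 and 22 counts after IRI and 2, 0, 5 and 3 in sham. Its count ratio was 13.2, with an exact 95% interval of 6.87 to 28.6 (log2 fold change 3.80, SE 0.75, edgeR adjusted p = 8.8e-04). Mmp25 reached 10 counts in the IRI libraries alone and so had to differ. It moved beside the neutrophil markers, whose part was not tested. Mmp15 was the leading membrane MMP in sham and did not pass, at 18.7, 17.8, 7.54 and 19.9 CPM after IRI, against 28.7, 18.5, 16.9 and 18.4 CPM in sham. Mmp23 did not pass.

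Among the ADAMs with an active protease, 4 of 8 tested rose and 1 fell. Adam8, a protease of leukocytes that sheds adhesion receptors, gave the largest rise of the reported members. It was at 34.0, 38.3, 36.0 and 50.3 CPM after IRI, against 0.859, 0.849, 1.24 and 0.998 CPM in sham, 39.9-fold (log2 fold change 5.32, SE 0.28, edgeR adjusted p = 5.0e-07). IRI 4 was the highest library, and the other 3 were close to each other. Of 7 tested neutrophil markers 6 were higher as well, but Ngp, Retnlg and Cxcr2 passed the filter only or mainly through the IRI libraries. Of 10 macrophage markers 4 were higher, Itgam and Cd68 the most, and 6 did not pass. The part of both cell types in the rise of Adam8 was not tested. Adam19, meltrin beta, which sheds neuregulins, was at 16.1, 33.2, 30.8 and 27.2 CPM after IRI, against 3.43, 1.84, 2.41 and 3.81 CPM in sham. It rose 9.32-fold (log2 fold change 3.22, SE 0.35, edgeR adjusted p = 1.8e-05), with 10.1% of its exon bases under antisense genes. Adam12, meltrin alpha, was at 5.25, 16.05, 9.97 and 12.7 CPM after IRI, against 3.51, 4.00, 3.74 and 4.55 CPM in sham. It rose 2.76-fold (log2 fold change 1.47, SE 0.35, edgeR adjusted p = 0.00214), with IRI 1 close to the sham libraries.

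The general sheddases Adam10 and Adam17 moved in opposite directions. Adam10, which cuts Notch receptors and cadherins, was at 328, 240.3, 278 and 340.1 CPM after IRI, against 171, 173, 164 and 140.1 CPM in sham, a 1.83-fold rise (log2 fold change 0.87, SE 0.12, edgeR adjusted p = 2.6e-04). Adam17, the enzyme that frees tumor necrosis factor and most ligands of the epidermal growth factor receptor, was at 59.0, 60.1, 52.0 and 64.5 CPM after IRI, against 80.0, 93.6, 77.0 and 79.1 CPM in sham. It was 1.40-fold lower (log2 fold change -0.48, SE 0.09, edgeR adjusted p = 0.00118), and every IRI library was below every sham library. Adam9, the most abundant protease ADAM in sham, was at 185, 175, 179 and 176 CPM after IRI, against 165, 179, 160.1 and 158 CPM in sham and did not pass. Adam15 did not pass (adjusted p = 0.0258) but was lower without IRI 4 (0.00474), with upper quartile factors (log2 fold change -0.36, adjusted p = 0.0033) and with total counts (-0.44, adjusted p = 0.00115), so its call depended on the scaling. Adam28 did not pass.

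The ADAMs without an active protease act as adhesion and synaptic receptors. Adam22, a receptor for the secreted LGI proteins and most of this group's sum, was at 4.98, 10.3, 7.85 and 11.3 CPM after IRI, against 42.1, 38.5, 39.1 and 48.2 CPM in sham. All IRI libraries were far below sham, 4.91-fold (log2 fold change -2.30, SE 0.22, edgeR adjusted p = 3.0e-05), beside the fall of the collecting duct markers, whose part was not tested. Adam11 was at 4.62, 4.60, 8.28 and 3.65 CPM after IRI, against 2.58, 1.45, 1.84 and 3.25 CPM in sham. It rose 2.32-fold (log2 fold change 1.21, SE 0.32, edgeR adjusted p = 0.00951), a call lost without IRI 1, 2 or 3 or sham 1, 2 or 3, at adjusted p from 0.0150 to 0.0287. Adam23 did not pass, and its sham libraries ran from 0.283 to 4.62 CPM. Of 21 ADAMs known from testis and other reproductive tissue only Adam1a was reported. It was at 0.431, 1.25, 0.623 and 1.19 CPM after IRI, against 0.859, 0.319, 0.729 and 0.850 CPM in sham, did not pass, and shares 63.7% of its exon bases with Mapkapk5, Tmem116 and another gene.

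Of the inhibitors, Timp3 was the most abundant in both groups, and 2 of the 4 TIMPs rose. Timp3 is held in the matrix and also blocks ADAM17 and the aggrecanases. It was at 2314, 2539.8, 3212 and 2003 CPM after IRI, against 998.5, 945, 1149 and 1144 CPM in sham. It rose 2.38-fold without overlap (log2 fold change 1.25, SE 0.15, edgeR adjusted p = 1.1e-04). On the opposite strand Syn3 covers 21.3% of its exon bases, so part of the counts is uncertain. Timp1, a soluble inhibitor induced in many injuries, was at 19.0, 39.4, 11.9 and 13.5 CPM after IRI, against 0.560, 1.17, 2.12 and 2.25 CPM in sham. It rose 13.6-fold (log2 fold change 3.76, SE 0.58, edgeR adjusted p = 1.9e-04). IRI 2, with the highest fibroblast and pericyte markers, had the highest level, and without it the log2 fold change was 3.27. IRI 1, with the lowest sum of those markers among IRI libraries, was above IRI 3 and IRI 4. The part of those cells was not tested. The gene (chromosome X, 20870166 to 20874735) lies inside an intron of Syn1. Timp2, which helps Mmp14 activate pro-MMP2, was at 90.7, 122, 96.9 and 122 CPM after IRI, against 144, 140.2, 113 and 114 CPM in sham and did not pass (adjusted p = 0.123). Timp4 was at 0.274, 2.26, 0.249 and 1.23 CPM after IRI, against 0.709, 0.531, 1.27 and 0.591 CPM in sham and did not pass. The TIMPs together summed to 2647 ± 505 CPM after IRI, against 1190 ± 88.7 CPM in sham, and Timp3 was 95.1% and 89.0% of the sums.

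**Figure D3:**
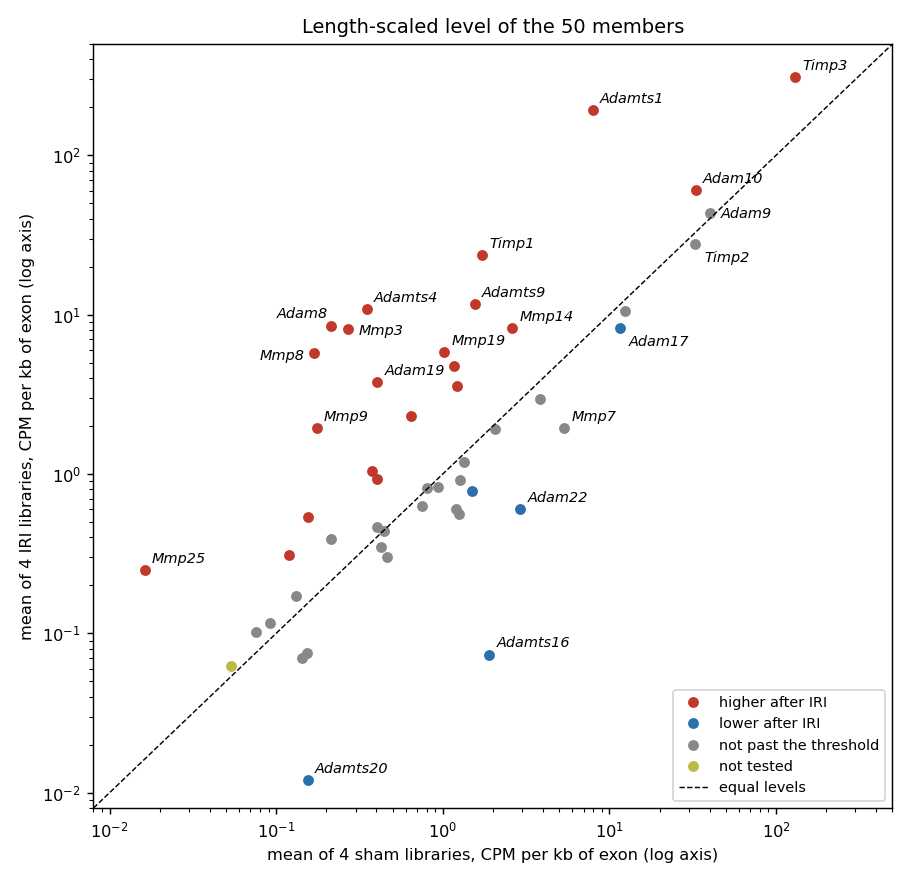
Mean level per kb of exon (CPM per kb, n = 4 libraries per group, both axes log) of the 50 reported members, IRI on the vertical and sham on the horizontal axis. Points above the dashed line are higher after IRI: Adamts1 moves up to 193 CPM per kb next to Timp3 at 309, while Adam9 and Timp2 lie near the line.

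Levels of different genes were compared per kb of exon. After IRI Timp3 stood first with 309 CPM per kb and Adamts1 second with 193, followed by Adam10 with 60.4, Adam9 with 43.5, Timp2 with 27.7 and Timp1 with 23.6. In sham the order was Timp3 with 130.1 CPM per kb, Adam9 with 40.2, Adam10 with 32.9 and Timp2 with 32.8, and Adamts1 was only 7th with 7.96. Adam10 and Timp2 thus had nearly the same level in sham. Adamts4 stood 8th after IRI and 35th in sham, Adam8 10th and 38th, and Mmp3 13th and 36th. The inhibitor Timp3 was the most abundant member per length in both groups.

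The IRI libraries did not rise to the same extent. Among the 21 higher members, IRI 2 was the highest IRI library in 11 and IRI 1 the lowest in 14. Sham 2 was the lowest sham library in 12. IRI 1 also had the lowest and IRI 2 the highest marker sum of the IRI libraries for fibroblasts and pericytes, endothelium, macrophages and podocytes (235, 461, 378 and 285 CPM in IRI libraries 1 to 4 for the last), and IRI 1 was the deepest and IRI 2 the shallowest library of that group. The part of these cells and of depth in the order was not tested. IRI 4 was the highest in 5 of the 21, among them Adamts1 and Adam8, and these genes too were lowest in IRI 1.

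**Figure D4:**
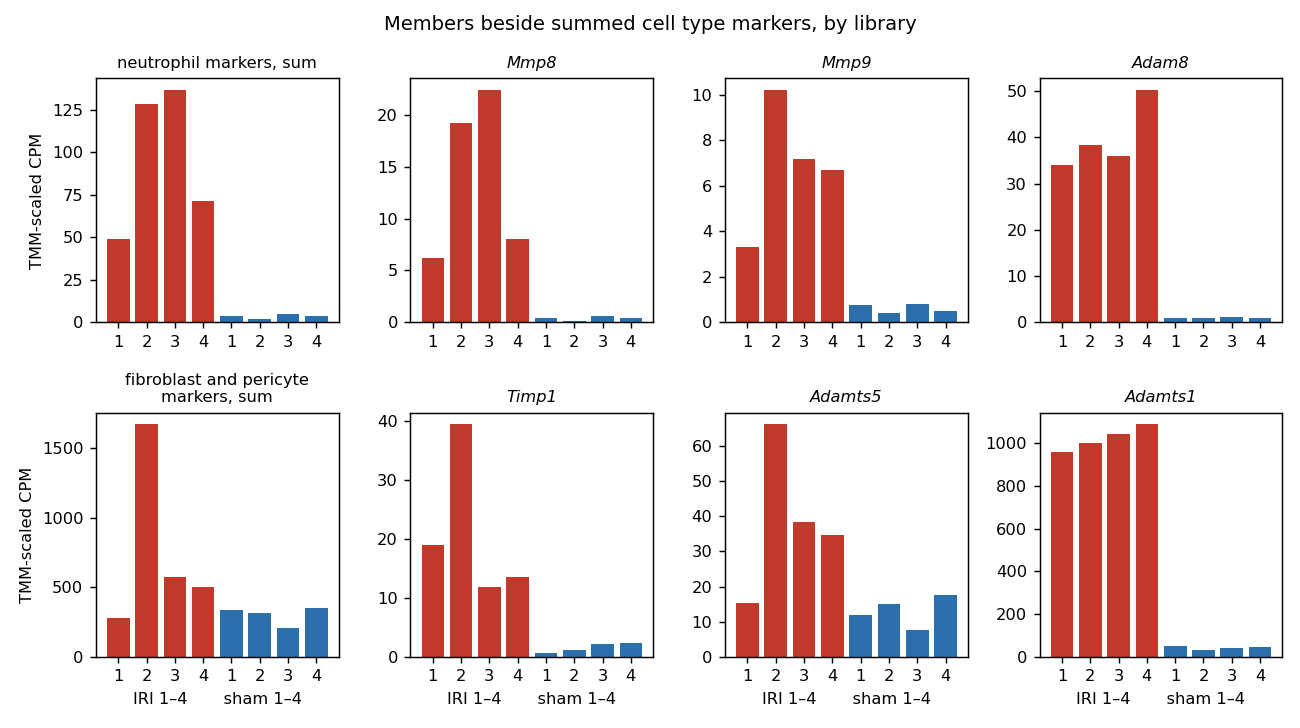
TMM-scaled CPM in each library (IRI 1 to 4 in red, sham 1 to 4 in blue) of the summed neutrophil markers beside Mmp8, Mmp9 and Adam8, and of the summed fibroblast and pericyte markers beside Timp1, Adamts5 and Adamts1; all axes start at 0. Mmp8 has the order of the neutrophil sum across IRI libraries, Timp1 and Adamts5 peak in IRI 2 with the fibroblast sum, and Adam8 and Adamts1 vary less.

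Genes around these proteases were counted as well. The counts stand beside 25.1% higher and 24.6% lower among all tested genes. Of 15 tested activators and partners 9 were higher and 1 lower, with a median log2 fold change of 0.53 against -0.01 for all genes. Rhbdf2 (iRhom), which carries ADAM17 to the surface, rose 4.05-fold, to 65.0 ± 4.96 CPM after IRI against 16.04 ± 1.30 CPM in sham, and the plasminogen activators Plau and Plat rose 4.00- and 3.22-fold. Tspan33, a tetraspanin partner of ADAM10, rose 1.97-fold, and Tspan15, another, was 1.94-fold lower. Of 5 tested other inhibitors and clearance genes 2 were higher and 3 did not pass, with a median of 0.60. Those higher were Tfpi2 (4.92-fold) and Thbs1 (3.96-fold).

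Among 28 genes for proteins that ADAMs shed, 22 were higher and 2 lower, with a median log2 fold change of 1.48, again beside 25.1% and 24.6% of all tested genes. The ligands of the epidermal growth factor receptor Ereg and Areg rose 32.9- and 32.2-fold and Epgn 12.6-fold. In the sham libraries Ereg had 5, 7, 3 and 1 counts, Epgn 1, 3, 1 and 2, and Tnf 4, 5, 8 and 8. Ereg, Epgn and Tnf are among the 22, but they reached the filter only through the IRI libraries and so had to differ. Areg, with 14, 8, 9 and 5 sham counts, passed the filter mainly through the IRI libraries. Btc, another such ligand, was 4.45-fold lower and L1cam, an adhesion molecule of the collecting duct, 4.14-fold lower. Transcript levels say nothing of how much protein was shed. Of 9 tested matrix substrates of ADAMTSs only Vcan (versican, 4.21-fold) and Fbn1 (fibrillin, 2.26-fold) were higher, 7 did not pass, and the median was -0.09. Of 12 tested metalloproteases of other families, 4 were higher and 2 lower, with a median of 0.43. Tll1, a procollagen C-proteinase relative, rose 4.57-fold, the aminopeptidases Anpep and Enpep, which are proximal tubule enzymes, 2.47- and 2.33-fold, and Ece1 1.53-fold. Mme, neprilysin, was 2.03-fold and Pappa 1.66-fold lower.

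The other 34 members were not reported. Of these, 13 had no count in any library, 18 had 1 to 57 counts over all libraries and were not tested, and 3 were tested. Besides Mmp10 these were Mmp16 and Adam4, and neither passed.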

How the data were processed

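Ribosome-bound RNA of HoxB7 lineage cells was sequenced from 4 IRI and 4 sham mice, and all 8 libraries were used. The study kept RNA with an integrity number of at least 6.8. The submitters' processing notes name mm10, TopHat2 2.1.1, HTSeq and DESeq2, and what the authors deposited are raw HTSeq counts for each gene symbol, without normalization. Which annotation, mode and strand option HTSeq was run with is not given in the sources used, so a gene and its antisense partner cannot be told apart. Summary lines that name no gene (43.3% to 52.3% of counted lines in IRI libraries, 33.3% to 37.7% in sham libraries) were left out.

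From the counts, 14606 genes that passed filterByExpr (minimum count 10, minimum total count 15) were tested in edgeR 4.0.16 (R 4.3.3) with TMM factors, the quasi-likelihood test, Benjamini-Hochberg adjustment and a threshold of 0.01. The fit was tested on simulated data. Standard errors are from limma 3.58.1 voom. Groups follow the treatment label. The common biological coefficient of variation was 0.206. Exact intervals at 95% cover counting error only, since no molecular identifiers are named for these libraries. Positions, exon lengths and overlaps are from GENCODE M21. Alternatives were other scalings, filters and tools (DESeq2 1.42.0, limma-voom), a replicate block, the animal number series in the submitters' names as a covariate, a threshold of 0.05 and each library left out.

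Every reported member is named with its call. Values in every library are given for members past the threshold with at least a 2-fold change, for all TIMPs and for the most abundant member of each role, and up to 4 pathway genes per direction and list are named. Other members are given per library where a library decided the call, chosen after their values were seen. The members, role groups, pathway lists and marker lists were chosen with earlier results of these data known. From the pathway lists, 2 genes are not reported here and are left out of the lists' counts and medians.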

Additional observations from a re-analysis of the deposited data

Results flagged for a closer look

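Among 122 groups of 4 libraries (a member or a summed marker list in 1 condition each), 7 held a library far from its nearest neighbour, and chance gives about 1 in 20. In Mmp3 it was IRI 4 at 22.57 CPM, with the other IRI libraries at 10.96 to 12.54 CPM. In Mmp15 both conditions had one, IRI 3 at 7.537 CPM (others 17.84 to 19.87) and sham 1 at 28.67 CPM (others 16.95 to 18.55). Sham 1 was also high in Mmp7 at 14.22 CPM (others 2.329 to 3.611), in Mmp11 at 5.413 CPM (others 3.622 to 3.928) and in Mmp23 at 4.555 CPM (others 2.181 to 2.534). In Mmp10 sham 1 was at 0.03733 CPM, which is 1 count, with no count in the other sham libraries.

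Reads with no unique alignment enter no gene and no comparison. Their share of counted lines averaged 31.68% after IRI and lay at 20.85% to 22.82% in the sham libraries.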

How the results depend on the processing

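Of the 26 called members, 22 stayed past the threshold in the same direction in every one of the 19 alternative settings that tested them (Mmp25 was not tested with the filter of 1 CPM in 4 libraries), none reversed, and 4 (Adam11, Adamts12, Adamts5 and Mmp11) lost the call in some. Besides libraries left out, Adamts5 and Adamts12 lost it with upper quartile factors, total counts, limma-voom, the replicate block and the animal number series (adjusted p from 0.0123 to 0.0299), Adam11 in the same settings without limma-voom (0.0155 to 0.0572), and Mmp11 with the replicate block (0.0308) and the animal number series (0.0130). Members higher numbered 18 to 21 and lower 4 to 6 over the settings, except that a threshold of 0.05 gave 8 lower, with Adam15, Mmp23 and Mmp28 added. With 1 library left out, 18 to 20 were higher and 4 to 6 lower, and 6370 to 7029 genes were called in all. Scaling by total counts moved the median log2 fold change of all genes to -0.20, with 2784 higher and 4912 lower genes, and upper quartile factors to -0.12, with 3092 and 4393, beside 3667 and 3595 with TMM; both gave 18 higher and 6 lower members. Replicate numbers did not pair the libraries (same-number correlations of -0.53 to -0.07, and 0 IRI libraries correlated best with their own number); with a replicate block 18 members were higher, 5 lower and 5582 genes called in all, and Mmp7 was lower (log2 fold change -1.27, adjusted p = 0.00548). With the animal number series as covariate, 18 were higher and 5 lower, and Mmp7 was again lower (log2 fold change -2.13, adjusted p = 0.00181).

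Among reported members, only uncalled ones changed sign, and the cause was not tested. Adamtsl1 was 0.00729 with DESeq2 size factors, 0.00761 in DESeq2, 0.00103 with the filter of 1 CPM in 4 libraries and 0.01381 with the replicate block, and -0.18 to 0.17 with a library left out. Mmp2 was 0.00073 with DESeq2 size factors, 0.01418 in DESeq2 and 0.43 with the animal number series, and -0.28 to 0.34 with a library left out. Adam9 was -0.00427 with upper quartile factors and -0.07937 with total counts. Timp4 was -0.21 in limma-voom and -0.40 to 0.65 with a library left out, Adamtsl2 0.08802 with the animal number series and -0.33 to 0.05854, and Adamts15 -0.33 to 0.19. Too few counts to report were found for 34 members, of which 13 had no count in any library, and the part of depth was not tested.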
